A study of Mus musculus with 12 samples.

Results

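The miR-30 family was followed in colonies of AKR-2B cells, a mouse fibroblast line, grown in soft agar with TGFβ or with vehicle. Every row of the mature miRNA count table named miR-30a to miR-30e was taken. This gave 11 of 1281 listed mature miRNAs, of which 664 had a read in any library. The 11 rows were 5 arms from the 5′ side of the hairpin (5p) and 6 from the 3′ side (3p). The 5p arms mmu-miR-30a-5p, mmu-miR-30b-5p, mmu-miR-30c-5p, mmu-miR-30d-5p and mmu-miR-30e-5p and the 3p arms mmu-miR-30a-3p and mmu-miR-30e-3p are described one by one, and the other 3p arms more briefly. They are written below without the mouse prefix mmu.

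A miRNA is a short RNA cut from a hairpin precursor, and the arm that is loaded into an Argonaute protein pairs with messenger RNAs through its seed, the bases near its 5′ end. The mature 5p arms of the miR-30 family share their seed, so their predicted targets largely overlap. In fibroblasts and related mesenchymal cells the family is known for repressing matrix and TGFβ-related genes, connective tissue growth factor (Ctgf) among them, and it has been reported to fall in fibrotic tissue.

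All cells were of the same line and were grown without anchorage in soft agar. Colonies received TGFβ at 25 ng/mL or vehicle only, and both kinds were recovered on days 2, 4 and 8. Each condition and day had 1 library, so there were 6 miRNA libraries, and no difference within a day has a replicate check. A further 6 libraries of mRNA enter only through tables of ratios deposited by the authors. AKR-2B is a single established line, so the values describe this line in this culture.

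The miRNA libraries held 178877, 459795 and 1387785 reads with TGFβ on days 2, 4 and 8, against 108716, 232107 and 414943 reads with vehicle on the same days. Depth thus was greater with TGFβ on each day and greater on later days, and its part in the results was not tested. All 5 of 5 miRNAs listed as markers of fibroblast-type mesenchymal cells were detected in every library, at a summed 85517 to 183803 CPM (counts scaled to library size) with TGFβ and 72102 to 98078 CPM with vehicle. The defining markers of red cells had 0 reads in all libraries, and those of leukocytes had 0 reads except for 3 reads in the TGFβ day 8 library. Endothelial markers summed to at most 23.6 CPM and the liver marker to at most 47.2 CPM in any library. The TGFβ day 2 library stood apart in its epithelial markers. It held 167 reads over 6 of the 7 (985 CPM), against 26 reads over 4 of the 7 (211 CPM) in vehicle on that day and 15.4 to 51.7 CPM in the other 4 libraries. Summed muscle markers were 119 to 218 CPM with TGFβ and 15.4 to 89.1 CPM with vehicle, and nerve markers 900 to 1380 CPM with TGFβ and 867 to 965 CPM with vehicle. Most muscle reads were of miR-206-3p, with 31, 45 and 156 with TGFβ on days 2, 4 and 8, against 10, 5 and 7 with vehicle. The other muscle markers had 0 to 6 reads in any library. The nerve reads were of miR-9-5p and miR-128-3p, while miR-124-3p had 0 reads in all libraries.

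The mature sequences show what the counting has to separate. They are from RefSeq (mouse build GRCm38.p6), which matched 7 of the 11 rows, and the capitals mark the seed, bases 2 to 8 from the 5′ end.
miR-30a-5p: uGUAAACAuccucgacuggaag
miR-30e-5p: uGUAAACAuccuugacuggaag
miR-30c-5p: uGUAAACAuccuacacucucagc
miR-30a-3p: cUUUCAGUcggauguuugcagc
miR-30e-3p: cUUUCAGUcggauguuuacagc
miR-30c-1-3p: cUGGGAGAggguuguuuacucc
miR-30c-2-3p: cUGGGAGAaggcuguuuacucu
miR-30b and miR-30d are named only.

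The 3 5p sequences shown share 1 seed. Counting positions from 1 at the 5′ end, miR-30a-5p and miR-30e-5p were identical at 21 of 22 positions and differed by C13U. Their 3p arms were likewise identical at 21 of 22 positions and differed by G18A. miR-30c-5p matched miR-30a-5p at 17 of the first 22 positions. Reads of miR-30a and miR-30e can therefore be exchanged by 1 miscalled base, and no source used here says how the authors' counting treated such reads. The 3p arms fell into other seed groups, 1 for miR-30a and miR-30e and 1 for the arms of the miR-30c precursors. In the RefSeq table of 1679 mature miRNAs, the 5p seed also occurred in miR-384-5p, which had 0 of 2782223 reads over the 6 libraries and so could make up at most 0.000108% of them (3 reads). That floor covers counting error only.

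The hairpins of miR-30a and miR-30e, with both mature arms in capitals, show the origin of the arms compared further on.
Mir30a: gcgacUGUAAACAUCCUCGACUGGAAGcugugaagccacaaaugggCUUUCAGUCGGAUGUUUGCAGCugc
Mir30e: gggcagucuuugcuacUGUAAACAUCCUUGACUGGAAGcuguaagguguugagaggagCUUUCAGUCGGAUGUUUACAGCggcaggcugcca
The family comes from 6 precursor genes in 3 pairs (GRCm38, GENCODE M21 annotation). Mir30a (chr1:23272269-23272339, plus strand) lay 19361 bases from Mir30c-2 (chr1:23291701-23291784, plus strand), which overlapped an exon of the long noncoding RNA Gm27028. Mir30e (chr4:120772606-120772697, minus strand) and Mir30c-1 (chr4:120769534-120769622, minus strand) lay 2983 bases apart in introns of Nfyc, a subunit gene of the NF-Y transcription factor. Mir30b (chr15:68337415-68337510, minus strand) and Mir30d (chr15:68341208-68341289, minus strand) lay 3697 bases apart and overlapped annotated exons, of Gm26621 for Mir30b and of Gm20732 and Gm37296 for Mir30d. Mature miR-30c-5p is the same from both of its precursors, and the authors' deposited table of RPM (reads scaled to library totals) gave both the same values, for example 2228.64 RPM each in the TGFβ day 8 library, so its reads cannot be assigned to a locus.

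miR-30d-5p was the dominant member in every library. Its CPM, scaled by trimmed mean of M-values (TMM), averaged 19381 over the 6 libraries, the 18th highest of the mature miRNAs. The averages of the other 5p arms were 3545 CPM for miR-30c-5p, 2802 CPM for miR-30a-5p, 440 CPM for miR-30e-5p and 113 CPM for miR-30b-5p. The ranges over libraries did not overlap between miR-30d-5p (15249 to 24162 CPM) and any other member. They did overlap between miR-30c-5p (1415 to 6149 CPM) and miR-30a-5p (1937 to 4255 CPM), and in both day 2 libraries miR-30a-5p was the higher, in vehicle by less than the counting error. The next gap was clear again, since miR-30e-5p ran from 324 to 699 CPM and miR-30b-5p from 17.7 to 229 CPM. miR-30a-3p averaged 326 CPM and miR-30e-3p 98.9 CPM. Of the remaining 3p arms miR-30c-2-3p averaged 175 CPM, miR-30b-3p 29.4 CPM, miR-30c-1-3p 15.4 CPM and miR-30d-3p 7.14 CPM. These compare reads, which need not follow the number of molecules of different miRNAs.

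**Figure D1:**
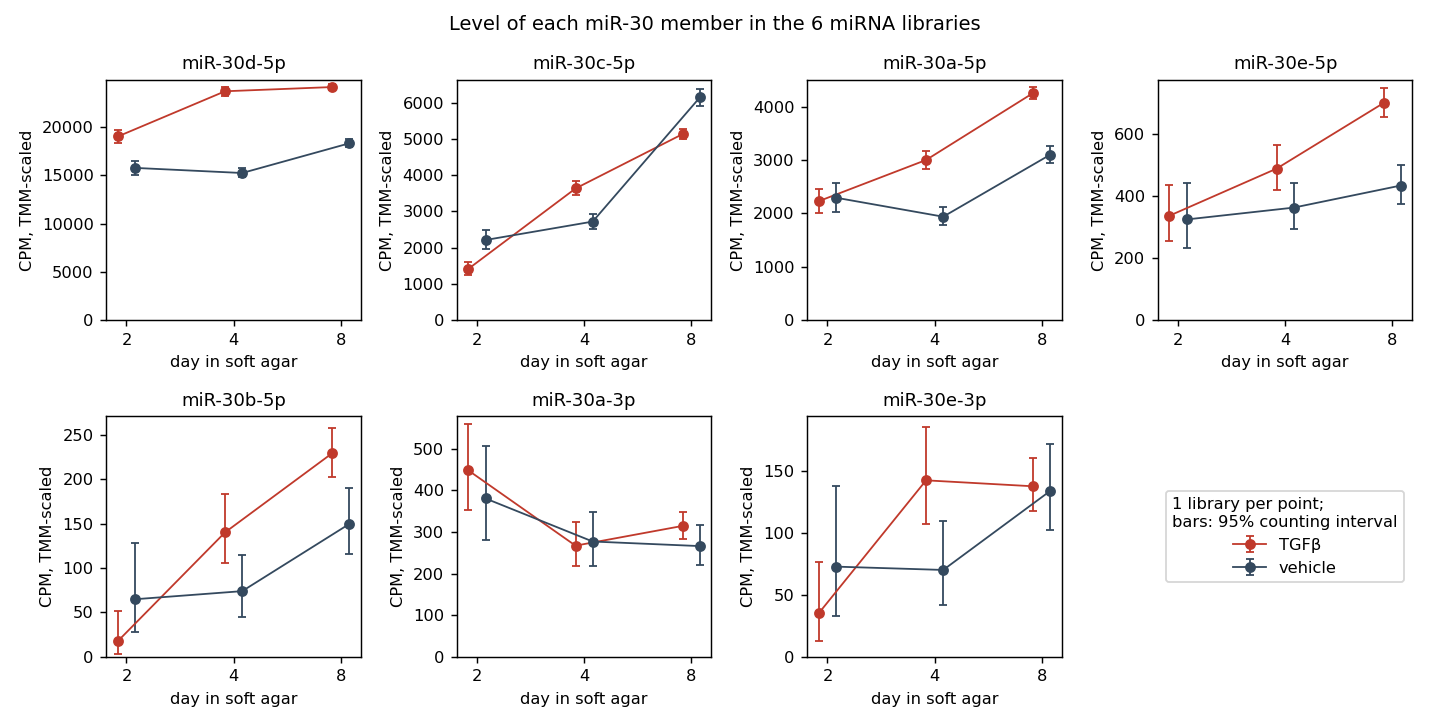
Level of each miR-30 member (TMM-scaled CPM, linear axis from 0) on days 2, 4 and 8 with TGFβ (red) and vehicle (dark), 1 library per point, with 95% counting intervals. miR-30c-5p ran from 1415 to 5138 CPM over the TGFβ days and from 2211 to 6149 CPM over the vehicle days, while miR-30d-5p stayed between 15249 and 24162 CPM.

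Together the 5p arms took 2.18%, 2.60% and 2.99% of all reads in the TGFβ libraries of days 2, 4 and 8, against 2.35%, 2.37% and 3.09% in the vehicle libraries. With TMM scaling their sum was 23036, 30986 and 34483 CPM with TGFβ, against 20672, 20342 and 28162 CPM with vehicle. The ratios of TGFβ to vehicle were 1.11 on day 2 (95% counting interval 1.06 to 1.17), 1.52 on day 4 (1.48 to 1.57) and 1.22 on day 8 (1.20 to 1.25). Scaled to total reads the same ratios were 0.930, 1.10 and 0.970, so only the day 4 direction was the same under both scalings. These intervals, and all others for single libraries, cover counting error only, and reads are not independent molecules. The change of scaling moved the median log2 change of all measured miRNAs by -0.25, -0.44 and -0.33 on days 2, 4 and 8, and DESeq2 size factors moved it by -0.15 on day 4.

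The response of miR-30d-5p, the main carrier of the shared seed, was at most 1.56-fold on any day. It had 3229, 9145 and 29092 reads with TGFβ on days 2, 4 and 8, or 19039, 23725 and 24162 TMM-scaled CPM. With vehicle it had 1948, 4126 and 8332 reads, or 15780, 15249 and 18330 CPM. On this scale the TGFβ library was the higher within each day, by 1.21-fold (1.14 to 1.28), 1.56-fold (1.50 to 1.61) and 1.32-fold (1.29 to 1.35). On total reads the ratios were 1.01, 1.12 and 1.04, and the groups overlapped over the days. There miR-30d-5p took 1.81%, 1.99% and 2.10% of reads with TGFβ, against 1.79%, 1.78% and 2.01% with vehicle.

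miR-30c-5p, which shares its seed with miR-30d-5p but comes from 2 other loci, did not keep 1 direction. It had 240, 1401 and 6186 reads with TGFβ on days 2, 4 and 8, or 1415, 3635 and 5138 CPM. With vehicle it had 273, 736 and 2795 reads, or 2211, 2720 and 6149 CPM. TGFβ over vehicle was 0.640 on day 2 (0.536 to 0.764), 1.34 on day 4 (1.22 to 1.46) and 0.836 on day 8 (0.799 to 0.874). The TGFβ library was thus the lower on days 2 and 8 and the higher on day 4. The day 4 value depended on the scaling, with 0.961 on total reads, against 0.534 on day 2 and 0.662 on day 8. The day 2 value rests on the TGFβ library with the raised epithelial markers, and their part in it was not tested.

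miR-30a-5p, encoded next to Mir30c-2, had 2229, 2999 and 4255 CPM with TGFβ on days 2, 4 and 8, against 2292, 1937 and 3100 CPM with vehicle. The groups overlapped over the days. Within a day the ratios were 0.972 (0.831 to 1.14), 1.55 (1.40 to 1.72) and 1.37 (1.29 to 1.46), and 0.812, 1.11 and 1.09 on total reads.

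miR-30e-5p, its near-copy from the Nfyc introns, had 57, 188 and 842 reads with TGFβ and 40, 98 and 197 reads with vehicle. Its ratios were 1.04 (0.680 to 1.60), 1.35 (1.05 to 1.74) and 1.61 (1.38 to 1.89). On total reads the day 4 value was 0.968 and the day 8 value 1.28, so day 8 was the 1 day on which both scalings put miR-30e-5p above 1.

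miR-30b-5p, from the locus of miR-30d, was scarce. It had 3, 54 and 276 reads with TGFβ on days 2, 4 and 8, against 8, 20 and 68 reads with vehicle. The day 2 ratio of 0.273 had an interval of 0.0466 to 1.14, which holds 1. The ratios of 1.90 on day 4 (1.12 to 3.34) and 1.53 on day 8 (1.17 to 2.03) lay above 1. Total reads gave 1.36 and 1.21, for which no intervals were made.

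**Figure D2:**
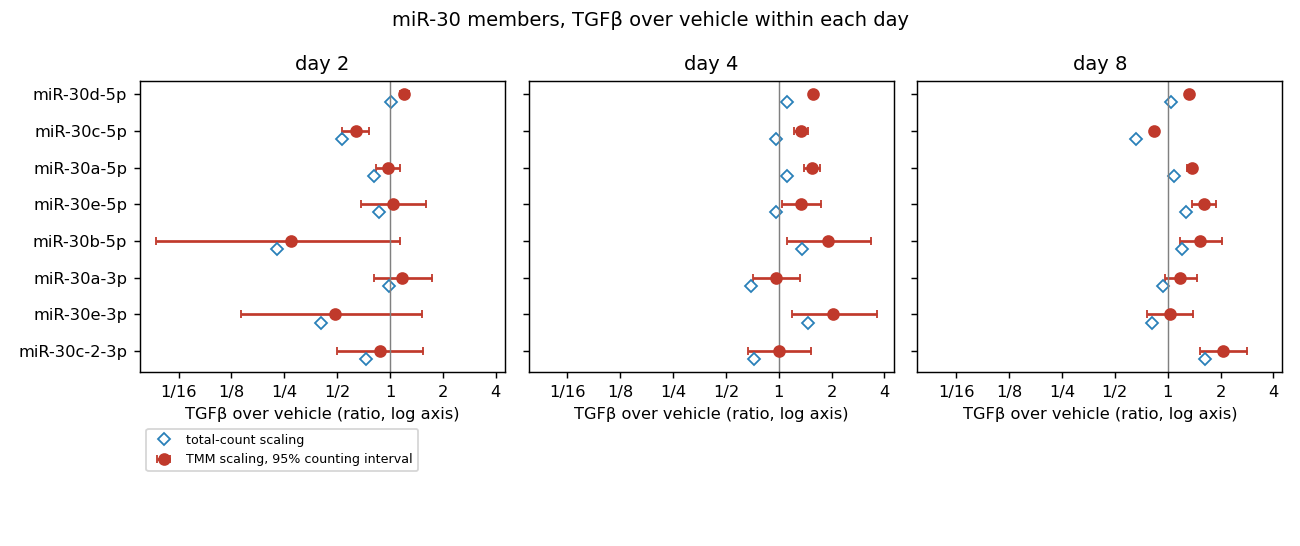
TGFβ over vehicle ratio of 8 miR-30 members within each day (log axis), with TMM scaling and its 95% counting interval (red circles) and with total-count scaling (blue diamonds). The diamonds lie left of the circles throughout, and miR-30c-5p is left of 1 on days 2 and 8 under both scalings.

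The 3p arms were followed less precisely. miR-30a-3p had 76, 103 and 379 reads with TGFβ against 47, 75 and 121 with vehicle, and its ratios of 1.18, 0.964 and 1.18 all had intervals that held 1. On total reads these were 0.983, 0.693 and 0.937, so days 2 and 8 lay on the other side of 1. miR-30e-3p had 6, 55 and 166 reads with TGFβ against 9, 19 and 61 with vehicle. Of its ratios of 0.485, 2.03 and 1.03, only that of day 4 had an interval above 1 (1.19 to 3.63). miR-30c-2-3p had 30, 60 and 290 reads with TGFβ against 25, 42 and 53 with vehicle. It was 2.07-fold higher with TGFβ on day 8 (1.54 to 2.82), or 1.64-fold on total reads, while miR-30c-5p was lower. On day 2, when miR-30c-5p was lower too, the ratio of miR-30c-2-3p was 0.873 (0.497 to 1.55). miR-30b-3p had 17 reads with TGFβ and 2 with vehicle on day 4, a ratio of 5.97 with the wide interval of 1.42 to 53.2. miR-30c-1-3p had 11 reads with TGFβ and 0 with vehicle on day 4, and miR-30d-3p 0 to 9 reads in any library.

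On each day 10 of the 11 members averaged 10 CPM or more. Of these, 1 had an interval above 1 on day 2, 8 on day 4 and 5 on day 8, with TMM scaling. Of all measured miRNAs 18.5%, 32.2% and 36.0% did on the same days. Among the 8 members of day 4, miR-30c-5p and miR-30e-5p had ratios below 1 on total reads, 0.961 and 0.968. No intervals were made on total reads, so the count of 8 holds for TMM scaling only. Intervals below 1 were found for 1, 0 and 1 members, that is miR-30c-5p on days 2 and 8, against 16.9%, 22.4% and 34.3% of all. Changes of at least 2-fold were found for 1, 2 and 1 members upward, against 11.9%, 21.6% and 20.2% of all, and for 1, 0 and 0 members downward, against 14.1%, 17.8% and 21.6% of all. These fold counts use log2 changes with a prior count of 2, scaled to library size, which pulls scarce miRNAs toward no change. miR-30e-3p with its ratios of 2.03 on day 4 and 0.485 on day 2 is thus not among them, while some scarcer members are. The upward member of day 2 was miR-30d-3p (4 reads with TGFβ, 0 with vehicle). Those of day 4 were miR-30c-1-3p (11 and 0) and miR-30b-3p (17 and 2). With vehicle they stood at 0, 0 and 7.39 CPM, so they averaged 10 CPM only through the TGFβ library. Their upward calls are therefore no result. miR-30c-1-3p and miR-30b-3p are also among the 8 members of day 4. The members' median log2 change was -0.04, 0.63 and 0.32, beside -0.04, 0.17 and 0.01 for all measured miRNAs. On total reads it was -0.28, 0.16 and 0.01, beside -0.29, -0.27 and -0.32 for all. Members stood above 0 in 4, 9 and 9 of 10 cases with TMM and in 2, 6 and 5 of 10 on total reads.

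Averaged over the days, no member passed the test for TGFβ. edgeR's quasi-likelihood test with day as a factor, over the 6 libraries and 309 miRNAs, called 0 of the 9 members that passed its filter at a Benjamini-Hochberg adjusted p of 0.05, and 0 of 9 at an unadjusted p of 0.05. Of all tested miRNAs 1.94% were called and 28.8% had an unadjusted p under 0.05. DESeq2 also called 0 members. The members that did not pass the filter were miR-30c-1-3p and miR-30d-3p. The days are not replicates, so the residual spread in this test (2 degrees of freedom) is the variation of the response from day to day. edgeR drew it toward the spread of all tested miRNAs (6.79 prior degrees of freedom). The p values and intervals thus rest on both. The log2 change of miR-30d-5p was 0.44 ± 0.23 (SE; 95% interval -0.08 to 0.95; adjusted p = 0.231 by edgeR). That of miR-30c-5p was -0.16 ± 0.32 (-0.88 to 0.56; adjusted p = 0.768 by edgeR), and the other 5p arms lay between 0.26 and 0.41. With total counts miR-30a-5p had -0.0058 and miR-30b-5p -0.11, and without day 2 miR-30c-5p had 0.07, so these directions were not stable. A p above the threshold does not show equal levels.

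Whether the TGFβ response differed between day 2 and the later days was tested with an edgeR interaction term, which left 1 residual degree of freedom. Its spread was likewise drawn toward that of all tested miRNAs (6.60 prior degrees of freedom). The interaction test called 0 of 9 members, against 3.88% of all tested miRNAs. miR-30c-5p had a difference of 0.72 ± 0.37 on the log2 scale (SE; adjusted p = 0.293 by edgeR). miR-30b-5p had 2.60 ± 1.10 (adjusted p = 0.213 by edgeR) and was the 1 member with an unadjusted p under 0.05, which 23.3% of all miRNAs had. DESeq2 called 0 members.

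For time in soft agar, 1 member passed the test. The libraries of a day differ in treatment and are not replicates. The residual spread is thus again the variation of the TGFβ response between days. In the same edgeR fit, miR-30c-5p rose on day 8 relative to day 2 by 1.65 ± 0.39 on the log2 scale (SE; adjusted p = 0.0446, rank 17 of 309), and was the 1 of 9 members called. At an unadjusted p under 0.05 there were 2 members, miR-30c-5p and miR-30b-5p, against 28.5% of all miRNAs. Of all miRNAs 6.8% were called and 2.91% were called as higher, and the median log2 change of all tested was 0.22. miR-30b-5p had the largest value among the members, 2.23 ± 0.74, but an adjusted p of 0.0909 by edgeR. Without the TGFβ day 2 library, where it had 3 reads, this was 1.15 (adjusted p = 0.287 by edgeR), below miR-30c-5p. The other 5p arms had 0.74 for miR-30e-5p, 0.67 for miR-30a-5p and 0.28 for miR-30d-5p, and miR-30a-3p had -0.51, none of them called. Over the alternatives tried, the adjusted p of miR-30c-5p ran from 0.000267 to 0.158. In edgeR the call was lost without day 4 (1.58, adjusted p = 0.116), without the TGFβ day 8 library (1.74, adjusted p = 0.158) and without the vehicle day 8 library (1.54, adjusted p = 0.156), at log2 changes close to 1.65, and kept without the TGFβ day 2 library (1.34 on the log2 scale, adjusted p = 0.0299). Day 4 against day 2 gave 0 of 9 members and 0.0% of all miRNAs (edgeR), with 0 members and 8.41% of all at an unadjusted p under 0.05, and DESeq2 called 0 members.

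The increase of miR-30c-5p was present within each treatment, where both ratios share the day 2 library. With TGFβ it was 2.57-fold on day 4 over day 2 (2.24 to 2.96) and 3.63-fold on day 8 over day 2 (3.19 to 4.15). With vehicle it was 1.23-fold (1.07 to 1.42) and 2.78-fold (2.45 to 3.16). Its vehicle values thus moved mostly between days 4 and 8, and its TGFβ values already between days 2 and 4. miR-30b-5p went 7.92-fold (2.57 to 39.6) and 13.0-fold (4.39 to 63.2) above day 2 with TGFβ, from a start of 3 reads, and 1.14-fold (0.481 to 2.99) and 2.31-fold (1.11 to 5.56) with vehicle. For miR-30d-5p, day 8 over day 2 was 1.27 with TGFβ (1.22 to 1.32) and 1.16 with vehicle (1.11 to 1.22). For miR-30a-5p it was 1.91 with TGFβ (1.72 to 2.12) and 1.35 with vehicle (1.19 to 1.54), and for miR-30e-5p 2.08 (1.59 to 2.77) with TGFβ and 1.34 (0.948 to 1.93) with vehicle. miR-30a-3p went the other way, to 0.702 (0.548 to 0.911) with TGFβ and 0.699 (0.495 to 1.001) with vehicle. Its vehicle interval just held 1. On the log2 scale with a prior count of 2, at least 2-fold higher on day 4 than on day 2 were 4 of 11 members with TGFβ, against 21.5% of all miRNAs, and 0 of 9 with vehicle, against 13.6%. On day 8 they were 4 of 11 with TGFβ, against 29.1%, and 2 of 10 with vehicle, against 20.6%.

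The make-up of the 5p arms does not depend on how the libraries are scaled, and shows the same shift. These read ratios were chosen after the values had been seen and are given as a description. miR-30d-5p made up 82.6%, 76.6% and 70.1% of the 5p reads with TGFβ on days 2, 4 and 8, against 76.3%, 75.0% and 65.1% with vehicle. miR-30c-5p made up 6.14% (5.41 to 6.94), 11.7% (11.2 to 12.3) and 14.9% (14.6 to 15.2) with TGFβ, against 10.7% (9.52 to 12.0), 13.4% (12.5 to 14.3) and 21.8% (21.1 to 22.6) with vehicle (exact 95% binomial intervals). Its share was higher on each later day under both treatments, and on each day lower with TGFβ than with vehicle. miR-30a-5p took 9.67%, 9.68% and 12.3% with TGFβ, against 9.52% to 11.1% with vehicle, miR-30e-5p 1.46% to 2.03% in any library and miR-30b-5p 0.0768% to 0.665%.

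**Figure D3:**
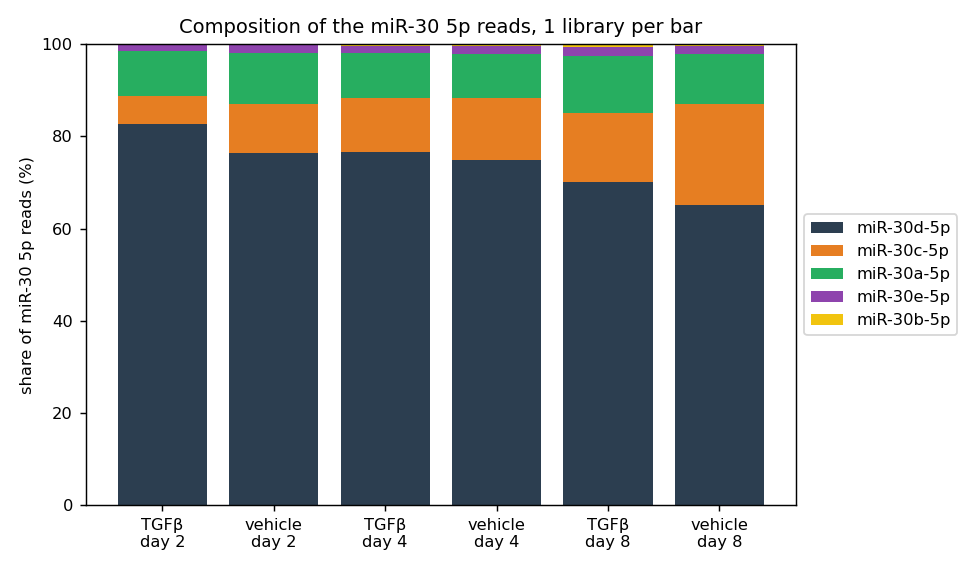
Share of each member in the miR-30 5p reads of a library (%, stacked to 100), 1 library per bar, with TGFβ left of vehicle for each day. The miR-30c-5p segment grows from day 2 to day 8 under both treatments, and in each pair it is smaller with TGFβ, 14.9% against 21.8% on day 8.

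For every 100 reads of miR-30d-5p there were 7.43, 15.3 and 21.3 reads of miR-30c-5p with TGFβ on days 2, 4 and 8, against 14.0, 17.8 and 33.5 with vehicle. TGFβ over vehicle, this ratio was 0.530 on day 2 (0.440 to 0.639), 0.859 on day 4 (0.779 to 0.947) and 0.634 on day 8 (0.602 to 0.667). All 3 days were therefore on the same side of 1 beyond counting error, with the smallest difference on day 4. Day 8 over day 2 it was 2.86 with TGFβ (2.50 to 3.28) and 2.39 with vehicle (2.09 to 2.75). Against the same miR-30d-5p reads, miR-30a-5p gave 0.806 on day 2 (0.682 to 0.953), 0.995 on day 4 and 1.04 on day 8, and miR-30e-5p 0.860, 0.866 and 1.22 (1.04 to 1.44 on day 8). miR-30c-5p was thus the 1 of the 4 other 5p arms whose interval lay below 1 on each day, while miR-30b-5p had 0.226 (0.0386 to 0.944), 1.22 and 1.16.

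The share of the 3p arm differed between days for miR-30a and not in any order for miR-30e. For miR-30a, the 3p arm made up 16.7% (13.4 to 20.5), 8.18% (6.73 to 9.83) and 6.89% (6.23 to 7.59) of the reads of both arms with TGFβ on days 2, 4 and 8. With vehicle it made up 14.2% (10.7 to 18.5), 12.5% (9.98 to 15.4) and 7.91% (6.61 to 9.38). The share was lower on day 8 than on day 2 under both treatments, with intervals that did not overlap, and the treatments were apart only on day 4. For miR-30e, whose 3p arm has the same seed, it was 9.52% (3.58 to 19.6), 22.6% (17.5 to 28.4) and 16.5% (14.2 to 18.9) with TGFβ, against 18.4% (8.76 to 32.0), 16.2% (10.1 to 24.2) and 23.6% (18.6 to 29.3) with vehicle. The intervals of the treatments overlapped on each day, and the day 2 shares rest on 6 reads of the 3p arm with TGFβ and 9 with vehicle.

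For miR-30c, taking both precursors, the 3p arms made up 11.8%, 4.82% and 4.90% with TGFβ, against 8.70%, 5.40% and 2.17% with vehicle. On day 8 the intervals were apart, 4.39% to 5.46% with TGFβ and 1.67% to 2.77% with vehicle. Most of these 3p reads carried the Mir30c-2 sequence, 84.5% to 93.8% of them with TGFβ and 85.5% to 100% with vehicle. miR-30d had almost no 3p reads, at most 0.124% of its total, and the 0 reads in the vehicle day 2 library allow a share of up to 0.154%.

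**Figure D4:**
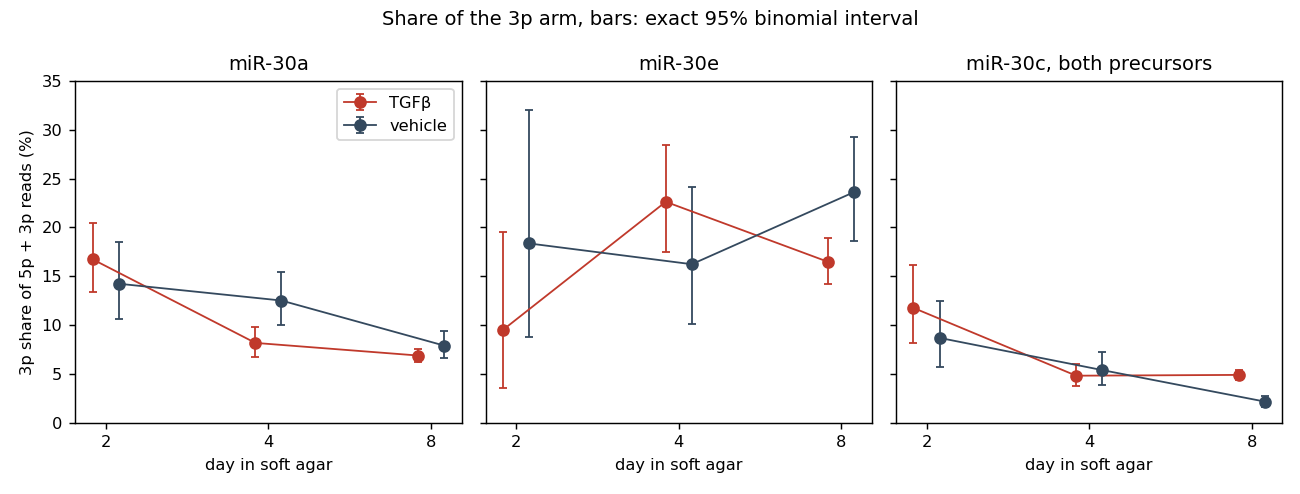
Share of the 3p arm in the reads of both arms (%) for miR-30a, miR-30e and miR-30c on days 2, 4 and 8, with TGFβ (red) and vehicle (dark), 1 library per point and exact 95% binomial intervals. The miR-30a share goes down to 6.89% with TGFβ and 7.91% with vehicle on day 8, while the miR-30e intervals of the treatments overlap on each day.

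Across the 6 libraries, which share cell line and differ in depth, the log2 CPM of the summed 5p arms had a Pearson r of 0.95 with miR-30a-5p, 0.93 with miR-30d-5p, 0.92 with miR-30e-5p, 0.72 with miR-30b-5p and 0.71 with miR-30c-5p. The sum contains these members, so this is a description. Outside the family, the 5 that followed the sum most closely were miR-31-3p (r = 0.967), miR-362-5p (0.946), miR-181a-5p (0.938), miR-425-5p (0.937) and miR-34a-5p (0.936), out of 243 that averaged 50 CPM or more. miR-181a-5p had 8007, 44407 and 60377 CPM with TGFβ, against 7031, 9983 and 15822 CPM with vehicle, a much wider range than that of the summed miR-30 5p arms.

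The authors' deposited tables of mRNA ratios list 998 genes per day, with 499 above 1 and 499 below, and name no direction. They are read here as TGFβ over vehicle, the reading that puts most direct TGFβ targets above 1, so the side of such genes, Ctgf among them, is no result. Of 39 genes reported in the literature as miR-30 targets, these tables listed 1 on day 2, 6 on day 4 and 5 on day 8. The number of genes measured is not given in them, so a share of all genes to set beside these counts is lacking. All listed targets stood above 1 under this reading, which was set by TGFβ targets, so their side is not a separate result. Nt5e, which encodes the surface enzyme CD73, was listed on all 3 days at ratios of 8.38, 13.2 and 24.0 in the authors' deposited table. Itgb3, the β3 integrin subunit, stood in the authors' deposited table at 15.5 on day 4 and 16.8 on day 8. Sox9, a cartilage transcription factor, stood there at 14.0 and 5.59, and Prdm1, a transcriptional repressor, at 7.05 and 7.39 (the authors' deposited table). Ctgf stood there at 7.90 and 8.52, and on day 4 Lox, a collagen cross-linking enzyme, at 5.24 (the authors' deposited table). Of 17 genes of the miRNA machinery 0 were listed on any day, and Nfyc was not listed either. The smallest listed ratio above 1 was 3 on day 2 and 5 on days 4 and 8 in the authors' deposited table. The largest below 1 was 0.143 on each day. Smaller differences cannot be seen, and as fold changes the lists reach closer to 1 on the upper side than on the lower. The mRNA and miRNA values came from separate libraries, with 1 per condition and day, and whether the targets' ratios follow from the miR-30 levels was not tested.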

How the data were processed

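Counts of reads per mature miRNA were deposited by the authors without normalization, and a second deposited table gives RPM per mature miRNA and precursor. Ratios (fold changes) of mRNA were deposited by the authors as 3 tables with no per-sample values. Per the submitters' processing notes, edgeR 3.9 and mm10 were used, with no role stated. Aligner and counting tool: not given in the sources used here. Members, gene lists and marker lists were chosen with earlier results of these data known.

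Counts were scaled by TMM (factors 0.838 to 1.17). edgeR 4.0.16 (quasi-likelihood test, limma 3.58.1, R 4.3.3) was fitted to all 309 miRNAs that passed filterByExpr, with day as a factor plus treatment and Benjamini-Hochberg adjustment over all of them. The biological coefficient of variation was 33.4%. The fit was tested on simulated counts only in a simpler setting than these data. There the libraries were independent, with no effect of day and the same treatment effect on each day. Ratios within a day have exact conditional binomial 95% intervals, and log2 changes use a prior count of 2. A count of 0 was read as up to 3 reads. Named rows were all miR-30a to miR-30e arms, the 5 closest other miRNAs, and every listed gene of the target, machinery and host gene lists. A further target gene was left out of the list and its counts and is not reported here. Alternatives were total counts, DESeq2 1.42.0 size factors and test, no filter, other prior counts (0.5 and 5), no day term, the RPM table and left-out days or libraries.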

Additional observations from a re-analysis of the deposited data

Results flagged for a closer look

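The TGFβ over vehicle ratio of miR-30c-5p went one way on day 4 and the other on days 2 and 8, on TMM-scaled counts. It was 1.34 on day 4 and 0.640 on day 2, which differ by 2.09-fold. Against 0.836 on day 8, the day 4 ratio was 1.60-fold higher. Each day has 1 library per condition, so these differences between days were not tested for single days. The edgeR interaction test of days 4 and 8 together against day 2 gave an adjusted p of 0.293 for miR-30c-5p. On total reads the day 4 ratio was 0.961, on the same side as days 2 and 8.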

How the results depend on the processing

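The direction of the summed 5p arms depended on the scaling. TGFβ over vehicle on day 2 was 1.11 with TMM but 0.930 with total counts and 0.931 in the RPM table, and on day 8 it was 1.22 with TMM but 0.970 with both of these and 1.19 with DESeq2 size factors. On day 4 it was 1.52 with TMM and stayed above 1 at 1.10 with total counts, 1.10 in the RPM table and 1.35 with DESeq2 size factors. On day 4 the log2 change of miR-30c-5p became -0.0574 with total counts and -0.0576 in the RPM table, and that of miR-30e-5p -0.0458 and -0.0464. The RPM table is scaled to library totals. Of 28 within-day values of single members, 11 moved beyond their counting interval with total counts, 11 in the RPM table, 4 with DESeq2 size factors and 0 with prior counts of 0.5 or 5. The count of members called for day 8 over day 2 was 1, and became 2 with total counts, 2 with DESeq2 size factors, 2 without a filter and 2 without the vehicle day 2 library. In each of these edgeR fits miR-30b-5p joined, at an adjusted p (edgeR) of 0.0377, 0.0354, 0.00953 and 0.00228. It became 0 without day 4. When 1 library was left out, whether the call of miR-30c-5p was kept depended on which library it was. Its log2 change was 1.74 without TGFβ day 8, 1.54 without vehicle day 8, 1.34 without TGFβ day 2 and 1.91 without vehicle day 2. The single-library omissions were added after seeing the data, as was the comparison of read shares with the RPM table. For TGFβ averaged over days, 0 members were called under each of the alternatives, while the calls among all miRNAs, 6 in the edgeR test, rose to 58 with total counts, 58 with DESeq2 size factors, 40 with the DESeq2 test, 46 without a filter and 109 without day 2, and fell to 2 without day 4, 3 without day 8 and 4 without the day term. For day 8 over day 2 the edgeR test made 21 such calls, against 54 with total counts, 58 with DESeq2 size factors, 52 with the DESeq2 test, 62 without a filter, 13 without day 4, 41 without the TGFβ day 2 library, 105 without the vehicle day 2 library and 1 without the TGFβ day 8 library. Of 228 values of single members in edgeR and DESeq2 alternatives, 200 kept direction and side of the threshold and 21 changed sign, 0 of these 21 past the threshold. For TGFβ averaged over days, total counts gave miR-30a-3p -0.22, miR-30a-5p -0.0058, miR-30b-5p -0.11, miR-30c-2-3p -0.0458 and miR-30e-3p -0.22. Leaving out day 2 gave miR-30c-5p 0.0703, leaving out day 4 gave miR-30b-5p -0.28 and miR-30e-3p -0.43, and leaving out day 8 gave miR-30a-3p -0.0323, miR-30b-5p -0.18 and miR-30c-2-3p -0.21. For day 8 over day 2, miR-30c-2-3p had 0.0807 without a filter, 0.13 without the vehicle day 2 library and 0.36 without the vehicle day 8 library. For day 4 over day 2, miR-30b-3p had -0.0301 with total counts. DESeq2 size factors there gave miR-30a-5p -0.0492, miR-30b-3p -0.0856 and miR-30d-5p -0.0026, and the DESeq2 test gave them -0.0488, -0.24 and -0.0026 (all log2). The day term of the edgeR fit pairs the libraries of a day, and 0 members were called for TGFβ with or without it. Depth limits the scarce arms, such as miR-30b-5p with 3 reads in the TGFβ day 2 library.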
